A study of Mus musculus with 50 samples.

Results

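The use of variable (V) segments of the T cell receptor was read out of bulk RNA-seq libraries of mouse Treg cells (regulatory T cells, a CD4 lineage defined by Foxp3) and of Treg progenitors sorted from thymus. All mice are given as male. Every symbol in the deposited count table that begins with Trav or Trbv and a number was taken, which gave 165 of 55011 symbols: 130 alpha chain segments (Trav) and 35 beta chain segments (Trbv). The 50 libraries form 16 groups, each of 500 to 1000 double-sorted cells per library. The thymus gave 18 libraries from the strain B6.Cg-Foxp3tm1Kuch/J at 3 ages, D5, D12 and D49 (5, 12 and 49 days after birth), with 3 libraries each of P1 cells (CD4+CD8-CD25+Foxp3-) and P2 cells (CD4+CD8-CD25-Foxp3+) at each age. The other 32 libraries hold CD4+Foxp3GFP+ cells at week 20 from a strain whose label gives the allele Foxp3tm3(HBEGF/GFP)Ayr/J on the background B6.129(Cg), in which the Foxp3 gene drives a diphtheria toxin receptor and GFP. They came from spleen, lung, liver and ear skin, with 3 libraries titled PBS and 3 titled DT each, and from visceral adipose tissue (VAT), with 4 and 4. According to the series text, diphtheria toxin (DT) was given at 12 weeks on 3 consecutive days to mice with the receptor and to littermates without it, and the mice rested for 8 to 9 weeks. The titles call the control arm PBS, the strain label gives the receptor allele for both arms, and the genotype label is WT in all 50 libraries, so which mice carried the receptor is not settled, and each arm is named after its titles (PBS-labelled, DT-labelled). Libraries are named by group and title number. No label ties replicates to separate mice. The p-values therefore describe the spread among libraries, and that spread may be technical.

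An alpha chain gene is assembled in a thymocyte from 1 V and 1 J segment, and a beta chain gene from 1 V, 1 D and 1 J segment, by the RAG recombinase and the end-joining enzymes. The V segment encodes the first part of the receptor's variable domain, which ends in a conserved cysteine next to the hypervariable loop that contacts the peptide. Thymic selection and later clonal growth then change how often each segment is found in mature cells. In VAT, Treg cells are known for receptor repertoires that hold expanded clones. In a bulk library, more cells that use a segment and more receptor RNA per cell cannot be told apart.

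The segments whose shares stood apart in a library, described further on, are shown first, because how far a segment differs from its copies decides whether reads can be assigned to it. Each line gives the last 90 bases of the V exon, 5′ to 3′, from GENCODE M21 on mm10, with capitals for the first in-frame cysteine codon within the last 30 bases. Trbv17 lies at chr6:41163467-41163556 (plus strand), Trbv1 at chr6:40891796-40891885, Trbv13-2 at chr6:41121743-41121832, Trav8-1 at chr14:53470143-53470232, Trav12-3 at chr14:53622156-53622245 and Trav5-4 at chr14:53704425-53704514, all on the plus strand. All are annotated as V genes.
Trbv17: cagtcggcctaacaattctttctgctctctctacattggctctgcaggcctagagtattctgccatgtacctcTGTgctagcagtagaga
Trbv1: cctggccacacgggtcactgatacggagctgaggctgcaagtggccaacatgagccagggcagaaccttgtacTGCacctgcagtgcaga
Trbv13-2: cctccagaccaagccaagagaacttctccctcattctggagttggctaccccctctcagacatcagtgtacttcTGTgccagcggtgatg
Trav8-1: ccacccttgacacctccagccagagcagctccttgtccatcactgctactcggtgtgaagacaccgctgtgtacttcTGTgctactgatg
Trav12-3: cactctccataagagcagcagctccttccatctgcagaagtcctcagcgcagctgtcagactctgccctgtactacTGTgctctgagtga
Trav5-4: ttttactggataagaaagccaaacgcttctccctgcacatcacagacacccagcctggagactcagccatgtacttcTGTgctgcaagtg

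For the thymus comparisons 4 beta segments are shown in the same way: Trbv12-1 and its relative Trbv12-2, Trbv20, which was called in each of the 3 comparisons, and Trbv26. Trbv12-1 (chr6:41113978-41114067) and Trbv12-2 (chr6:41119275-41119364) differ at 32 of 293 bases. Trbv20 is at chr6:41188888-41188977 and Trbv26 at chr6:41227904-41227993, all on the plus strand.
Trbv12-1: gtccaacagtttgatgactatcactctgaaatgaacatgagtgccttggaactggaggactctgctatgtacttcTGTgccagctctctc
Trbv12-2: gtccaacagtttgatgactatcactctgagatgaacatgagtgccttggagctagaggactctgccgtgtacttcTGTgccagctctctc
Trbv20: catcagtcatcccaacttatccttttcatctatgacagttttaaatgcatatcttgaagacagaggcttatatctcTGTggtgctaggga
Trbv26: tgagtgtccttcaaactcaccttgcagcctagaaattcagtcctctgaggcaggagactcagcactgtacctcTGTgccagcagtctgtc

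Near-identical copies limited the alpha chain and not the beta chain. All 35 Trbv segments differed from their nearest relative by over 20 edits in the V exon. The mouse alpha locus carries a duplicated block, whose copies have d or n in their names, and 44 Trav segments had a copy with an identical V exon. Of these, 29 were at 0 counts and all 44 together held 43 counts over the 50 libraries. Another 28 Trav segments had a nearest copy at 1 to 5 edits and held 14266 counts. A further 41 had a nearest copy at 6 to 20 edits and held 33659 counts. Trav14-1 is among these 41: its V exon differs from that of Trav14d-1 at 13 of 312 bases. Trav14d-1 in turn is identical to Trav14n-1. The first 120 bases of the V exon follow, with capitals at the 7 bases that differ between the pair, for Trav14-1 (chr14:53554247-53554366, plus strand) and Trav14d-1 (chr14:52855855-52855974, plus strand).
Trav14-1: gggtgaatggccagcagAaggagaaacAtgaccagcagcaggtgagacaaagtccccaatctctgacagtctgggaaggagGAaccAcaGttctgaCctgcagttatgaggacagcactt
Trav14d-1: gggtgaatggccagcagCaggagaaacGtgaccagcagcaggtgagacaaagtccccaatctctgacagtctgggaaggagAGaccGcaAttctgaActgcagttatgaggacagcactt
Trav14-1 held 2120 counts, Trav14d-1 held 3 and Trav14n-1 held 0. Whether reads of Trav14d-1 and Trav14n-1 were lost in counting or the segments were little used was not tested. Since the multi-mapping settings are not given, a count of 0 for a segment with an identical copy is uncertain. Segments at a few edits, such as Trav8-1 (98.9% identical to Trav8d-1), can share reads with their copies.

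Of the 130 Trav segments 96 had any count, and of the 35 Trbv segments 33. Per library, 400 to 1803 counts fell on Trav and 651 to 5414 on Trbv, out of totals of 2521078 to 6981037. Annotated pseudogenes held 2.24% of Trav and 0.556% of Trbv counts. RNA of 5 Treg markers (Foxp3, Il2ra, Ikzf2, Ctla4 and Cd4) was found in every group. Their sum ran from 719 to 2263 CPM (counts scaled to library size) in the thymus and from 2269 to 4621 CPM outside it. Since P1 cells were sorted without Foxp3 and P2 cells without CD25 (Il2ra), this sum does not check the sort of either. Summed Trbv levels were lower outside the thymus and spleen. Their medians were 792 CPM in thymus, 681 in spleen, 528 in lung, 441 in liver, 386 in VAT and 253 in ear skin. Trav segments had median log2 fold changes against spleen of -0.36 in lung, 0.26 in liver, -0.52 in ear skin and -0.29 in VAT. Shares of a library with few counts are thus less precise, and the intervals given for single libraries (95%, exact Clopper-Pearson) cover counting error only, since no molecular identifiers are described.

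The beta chain was carried by few segments in every group. Trbv1 took 14% of Trbv counts as a mean of the 16 group means, Trbv13-2 took 11.9%, Trbv3 8.5%, Trbv19 8.12% and Trbv12-2 7.52%, and the 5 leading segments held 50% of all Trbv counts. Trbv16 (7.22%), Trbv15 (6.21%), Trbv13-3 (5.45%), Trbv2 (5.17%) and Trbv31 (4.07%) came next. Trbv31 is the segment that lies downstream of the constant genes in inverted orientation. Neighbours in this order, such as Trbv3 and Trbv19, were closer than the spread of their group means (Trbv3 from 5.39% to 11%, Trbv19 from 4.95% to 12.6%).

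The alpha chain was spread more evenly. Trav4-4-dv10 led with 4.36%, followed by Trav6-7-dv9 (4.24%), Trav13-1 (4.17%), Trav3-3 (4.05%), Trav12-3 (3.79%), Trav14-1 (3.71%), Trav7-5 (3.60%), Trav9-2 (3.55%), Trav9-4 (3.28%) and Trav17 (2.98%). These 10 segments held 37.7% of Trav counts, against 78.2% for the 10 leading Trbv segments. The order of the 10 was not resolved: the group means of Trav4-4-dv10 alone ran from 2.48% to 5.45%.

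**Figure D1:**
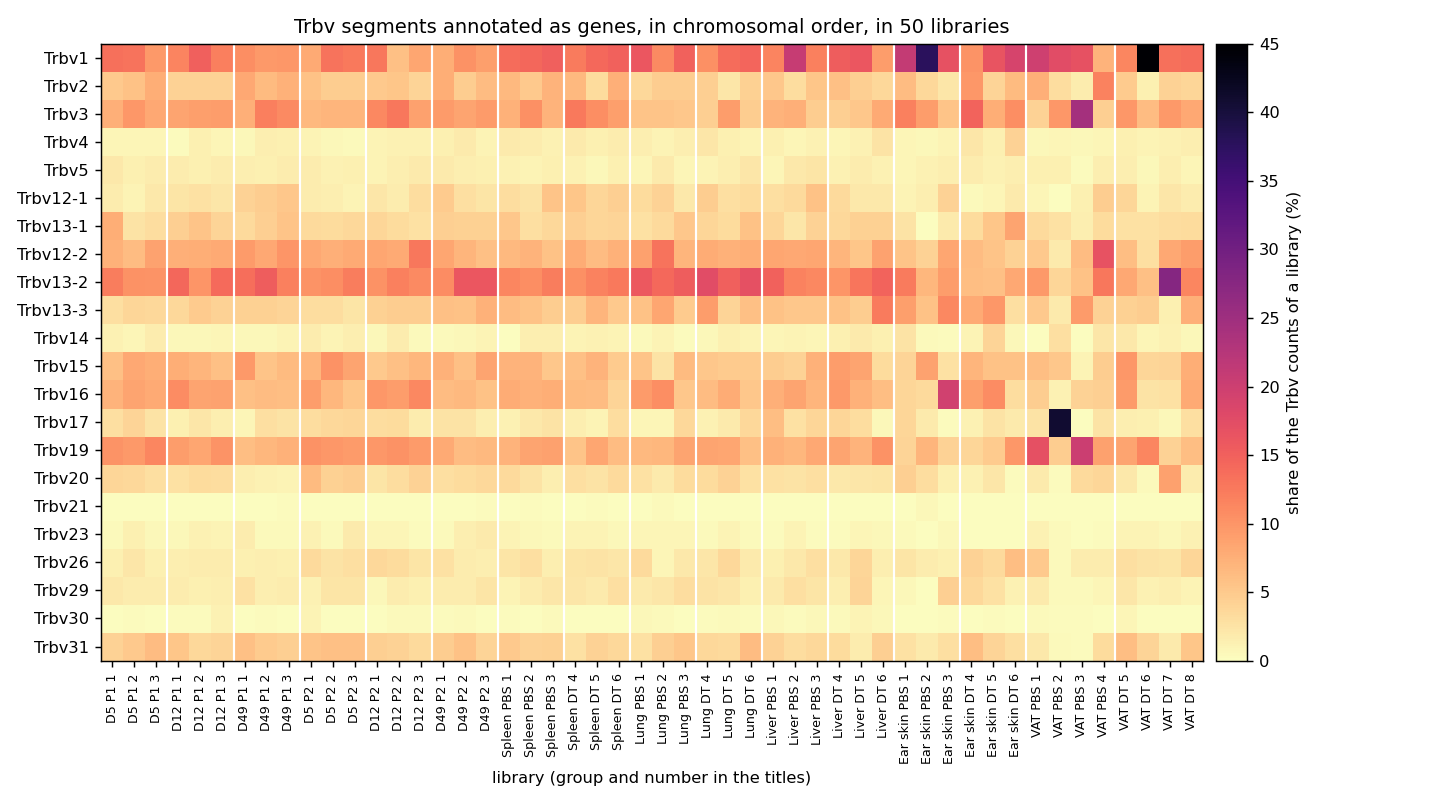
Share of Trbv counts (percent, colour) of each annotated Trbv gene (one line each) in each of the 50 libraries (one column each), ordered by group. The columns of thymus and spleen look alike, with no share over 16.1%, while single tiles stand out in ear skin and VAT, such as Trbv17 at 40.8% in VAT PBS 2 and Trbv1 at 44.7% in VAT DT 6.

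Beta segment use repeated closely between libraries of spleen and of thymus. Pairs of libraries were compared by the Bray-Curtis distance, the percentage of the chain's counts that would have to move between segments to make their shares equal. The median distance between Trbv shares of replicates was 8.5% to 12.8% in the 6 thymus groups and 10.9% and 11.7% in PBS- and DT-labelled spleen. In lung it was 14.5% and 15.2%, in liver 14.8% and 23.9%, in ear skin 29.6% and 25.3%, and in VAT 47.0% and 33.7%. For Trav, where counts were fewer, it was 17.4% to 31.3% in the thymus, 34.4% and 21.8% in spleen, 38.5% and 31.9% in lung, 36.6% and 43.5% in liver, 46.8% and 36.7% in ear skin and 51.6% and 40.8% in VAT.

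VAT libraries had high shares that differed from library to library, while Trbv1 was the leading Trbv segment in 4 of 8 (VAT PBS 1, VAT DT 5, VAT DT 6 and VAT DT 8) and Trav5-4 the leading Trav segment in VAT PBS 1 and VAT PBS 4. In VAT PBS 2, Trbv17 held 40.8% of Trbv counts (38.9% to 42.8%, 1017 of 2493 counts), against 0.0965% to 6.09% in the other 49 libraries. The same library had Trav8-1 at 21.5% of Trav counts (18.8% to 24.3%), against 0% to 2.62% in the others. VAT PBS 2 was thus alone in both chains.

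In VAT PBS 1, Trav5-4 held 17.1% (15% to 19.3%) and Trbv1 19.8%. In VAT PBS 3, Trbv3 held 24.3% (22.5% to 26.2%), Trbv19 20.1% (18.4% to 21.9%) and Trav10 10.8% (8.72% to 13.2%). In VAT PBS 4, Trbv12-2 held 16.6% and Trav5-4 9.79%. Trav5-4 was therefore high in 2 of 4 PBS-labelled VAT libraries, and at 0.885% in VAT PBS 2 and 1.88% in VAT PBS 3. In the DT-labelled arm it ran from 2.32% to 6.32%.

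In the DT-labelled arm, VAT DT 6 had Trbv1 at 44.7% (42.7% to 46.7%, 1123 of 2512 counts) and Trav8n-2 at 9.74%. VAT DT 7 had Trbv13-2 at 27.8% (25.3% to 30.4%) and Trav12-3 at 21.5% (18.3% to 24.8%). VAT DT 5 and VAT DT 8 had leading Trbv shares of 11.4% and 13.8%, not above those of spleen (12.6% to 15%). These 2 libraries were the VAT libraries with the most even use of beta segments.

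Shares of the constant genes also spread more widely in VAT than in spleen. The beta locus has 2 constant genes, Trbc1 and Trbc2, and a rearranged chain uses the one downstream of its J segment. Trbc1 took 23.3% of Trbc1 and Trbc2 counts in VAT PBS 2 (22.0% to 24.7%) and 63.2% in VAT DT 6 (61.9% to 64.4%), whereas all 6 spleen libraries lay between 41.5% and 47.6%. The other VAT libraries had 52.9% (VAT PBS 1), 56.9% (VAT PBS 3), 47.6% (VAT PBS 4), 48.5% (VAT DT 5), 40% (VAT DT 7) and 48.3% (VAT DT 8), and ear skin had 44.3% to 54.1%. Libraries without a high leading segment, such as VAT DT 5 and Ear skin DT 4 (54.1%), thus also lay above the spleen range. The leading Trbj segment held 13.1% to 20.4% of Trbj counts in VAT and 12.5% to 15.6% in spleen. It was above the leading Trbv share in VAT PBS 4, VAT DT 5 and VAT DT 8 and below it in the other 5 VAT libraries.

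Markers of other cells also varied among VAT libraries. In VAT DT 7 the sum of 4 fibroblast markers was 457 CPM and that of 5 macrophage markers 94.2 CPM, against 0.598 to 8.62 and 1.28 to 12.8 CPM in the other 7 VAT libraries. The sum of 5 B cell markers ran from 395 to 6315 CPM over the 8 libraries (1438 to 1945 CPM in spleen) and that of 4 NK cell markers reached 42.9 CPM in VAT PBS 2. The sum of 2 CD8 T cell markers, from cells that also carry alpha and beta chains, was 87.9 CPM in VAT DT 6 and 73.9 CPM in VAT DT 5, against 16.5 to 37.9 CPM in the other 6 and 10.5 to 29.6 CPM in spleen. The part of these cells in the shares was not tested. The sum of 4 T cell markers was 2593 to 3161 CPM. No gene of the B cell, macrophage, fibroblast, NK or CD8 lists was at 0 throughout VAT.

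For the high VAT shares looked up, libraries with the same number from other tissues did not reach the share in VAT. These were Trbv17 and Trav8-1 (VAT PBS 2), Trbv1 (VAT DT 6), Trav5-4 (VAT PBS 1), Trbv3 and Trbv19 (VAT PBS 3). By contrast, Trbv1 also led VAT PBS 1 but had a higher share in Ear skin PBS 1. The other VAT leaders were not compared in this way. Trbv17 was at 1.96% in Spleen PBS 2, 0.854% in Lung PBS 2, 2.67% in Liver PBS 2 and 1.86% in Ear skin PBS 2. Trbv1 was at 14.8%, 14.4%, 9.29% and 18.9% in the DT 6 libraries of spleen, lung, liver and ear skin. It was thus a prominent segment there too, and its ear skin share exceeded the 16.1% reached by any leading Trbv segment in thymus or spleen. Whether equal numbers mark one mouse is not given in the sources used here. Number 4 is titled PBS in VAT but DT in spleen, lung, liver and ear skin. At least this number therefore does not mark one mouse across VAT and the other tissues.

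**Figure D2:**
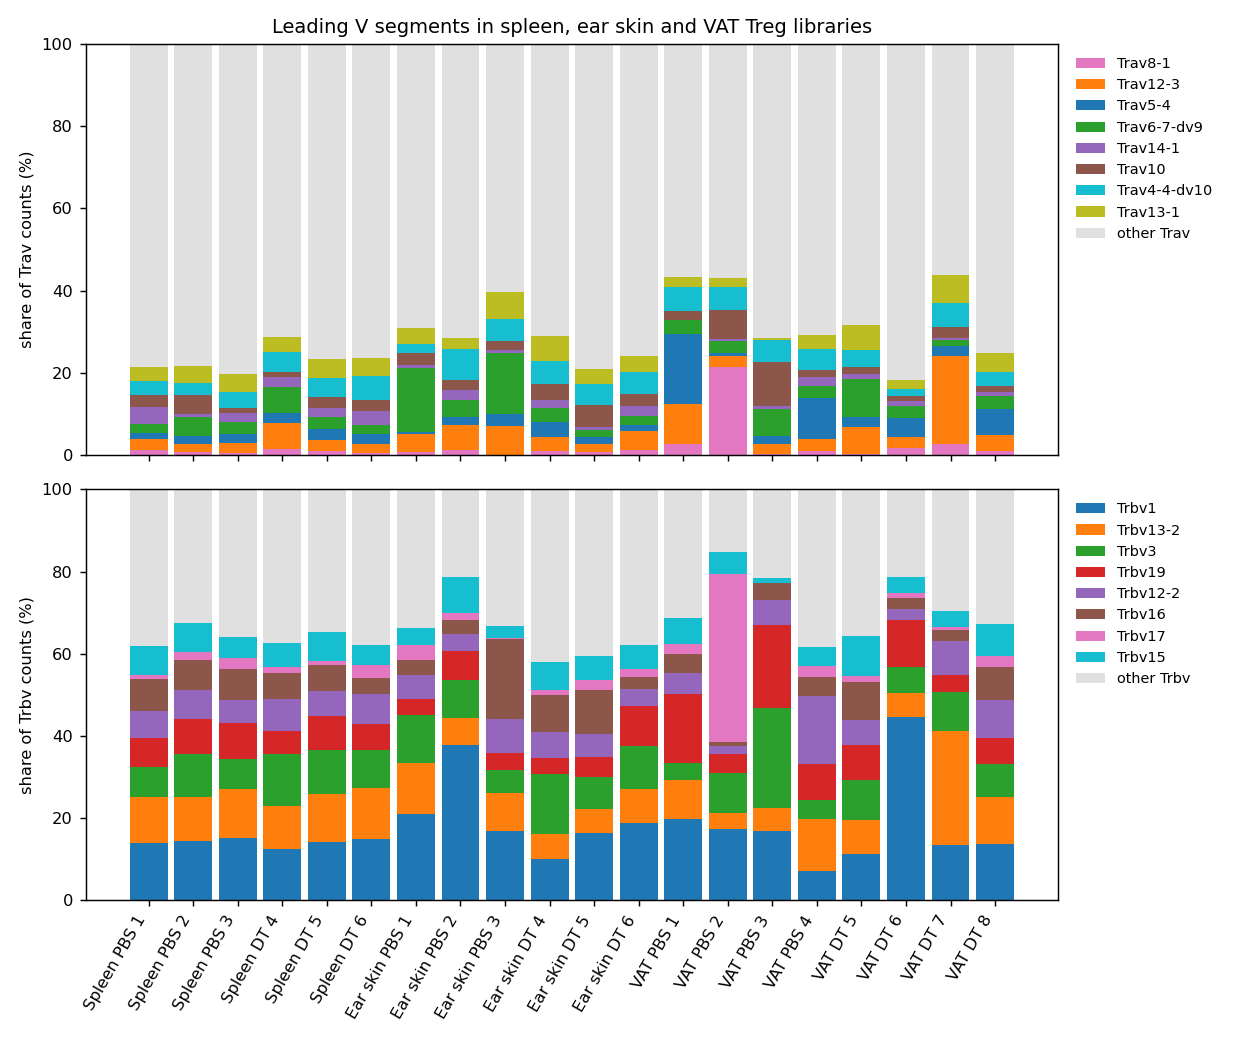
Leading V segments in spleen, ear skin and VAT. Each bar is one library and shows the share (percent) of the chain's counts taken by a fixed set of segments, the same in every bar. Trav and Trbv are in separate panels. All other segments are joined in grey, among them Trav8n-2, which was high in VAT DT 6. The leading Trbv share is 12.6% to 15% in spleen, while in VAT the leading share reaches 44.7% of Trbv counts (Trbv1, VAT DT 6) and 21.5% of Trav counts (Trav8-1, VAT PBS 2).

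Ear skin libraries of the PBS-labelled arm also had high single shares. Trbv1 held 37.7% (34.1% to 41.4%, 264 of 700 counts) in Ear skin PBS 2 and 21.0% in Ear skin PBS 1, and Trbv16 held 19.6% in Ear skin PBS 3. Trav6-7-dv9 held 15.7% (13.0% to 18.6%) in Ear skin PBS 1 and 14.8% (11.9% to 18%) in Ear skin PBS 3, but 4.09% in Ear skin PBS 2. In the DT-labelled ear skin libraries Trav6-7-dv9 was at 1.68% to 3.50%, so the arms did not overlap, and Trbv1 was at 10.1% to 18.9%. The arms were not tested within ear skin alone. How many other segments separate them there was not counted.

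Outside these tissues high shares were rare. Trav6-7-dv9 was at 14.1% and Trav14-1 at 12.5% in Liver DT 6, and Trbv1 at 20.7% in Liver PBS 2. CD8 T cell markers summed to 57.2 CPM in Liver DT 6 and at most 36.9 CPM in the other 5 liver libraries, and their part was not tested. Over all libraries, 6 Trav segments exceeded 10% in 8 libraries, of which 6 were ear skin or VAT, and 3 Trbv segments exceeded 25% in 4 libraries, all ear skin or VAT. The highest leading Trbv share in thymus or spleen was 16.1%, and 6 of 8 VAT, 5 of 6 ear skin, 2 of 6 lung and 2 of 6 liver libraries exceeded it.

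Evenness was summarised by the effective number of segments, the exponential of the Shannon entropy of the shares, which equals the number of equally used segments of the same evenness. For Trav it was 37.9 to 49.4 in the 6 spleen libraries and 20.9 to 42.3 in the 8 VAT libraries. The difference was -11.7 (exact permutation test within arms, two-sided, p = 0.0049, adjusted p = 0.045 over 18 tests). Per arm it was -14.8 in PBS-labelled and -8.64 in DT-labelled libraries, and 4 VAT libraries (VAT PBS 1, VAT PBS 2, VAT PBS 3 and VAT DT 7) lay below all spleen and thymus libraries. The call was lost in 10 of the 14 fits that left out a library: Spleen PBS 2 or 3, Spleen DT 4, 5 or 6, VAT PBS 1, 2 or 3, or VAT DT 6 or 7 (difference -12.3 to -10.1, adjusted p from 0.0514 to 0.09). It was also lost when all libraries were thinned to 400 Trav counts (-10.8, adjusted p = 0.0882), and when segments were summed by subgroup (-1.17, adjusted p = 0.257).

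For Trbv the 6 spleen libraries had effective numbers of 15.8 to 16.2. VAT libraries ran from 7.93 to 16.6 and ear skin libraries from 9.75 to 16.2, with differences of -3.69 and -2.29 that did not pass (exact permutation tests, adjusted p = 0.0759 and 0.0675). The VAT difference passed without VAT DT 5 (-4.28, adjusted p = 0.045), and the ear skin difference without Ear skin DT 5 (-2.52, adjusted p = 0.03). The lowest were VAT PBS 2 (7.93), VAT DT 6 (8.5), VAT PBS 3 (9.34) and Ear skin PBS 2 (9.75). Trav in ear skin differed from spleen by -9.76, with a range of 25.4 to 41.5 (exact permutation test, adjusted p = 0.06), and passed without Spleen PBS 1, Ear skin PBS 2 or Ear skin DT 5 (-11.6 to -10.1).

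Lung departed from spleen by little but without overlap. Its 6 libraries had Trbv effective numbers of 14.7 to 15.7, all below the lowest spleen library, and the difference was -0.67 (15.2 against 15.9; exact permutation test, p = 0.005, the smallest this design can give; adjusted p = 0.045). The call was lost in 8 of 12 fits without a library (Spleen PBS 2 or 3, Spleen DT 4, 5 or 6, or Lung DT 4, 5 or 6). Adjusted p in these 8 fits ran from 0.06 to 0.09. The tissues still did not overlap in any of the 12 fits, with differences of -0.732 to -0.614. Such a fit has fewer permutations, and its adjusted p depends on the other tests too. A call lost there therefore does not show that the difference rests on the library left out. The call was also lost in libraries thinned to 651 Trbv counts (-0.618, adjusted p = 0.0882) and for subgroup sums (-0.863, adjusted p = 0.112). Liver did not differ detectably from spleen in either chain (-3.80 for Trav, adjusted p = 0.429; -0.158 for Trbv, adjusted p = 0.762). Leaving out a library moved the liver difference for Trav between -5.36 and -1.23 without a call.

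**Figure D3:**
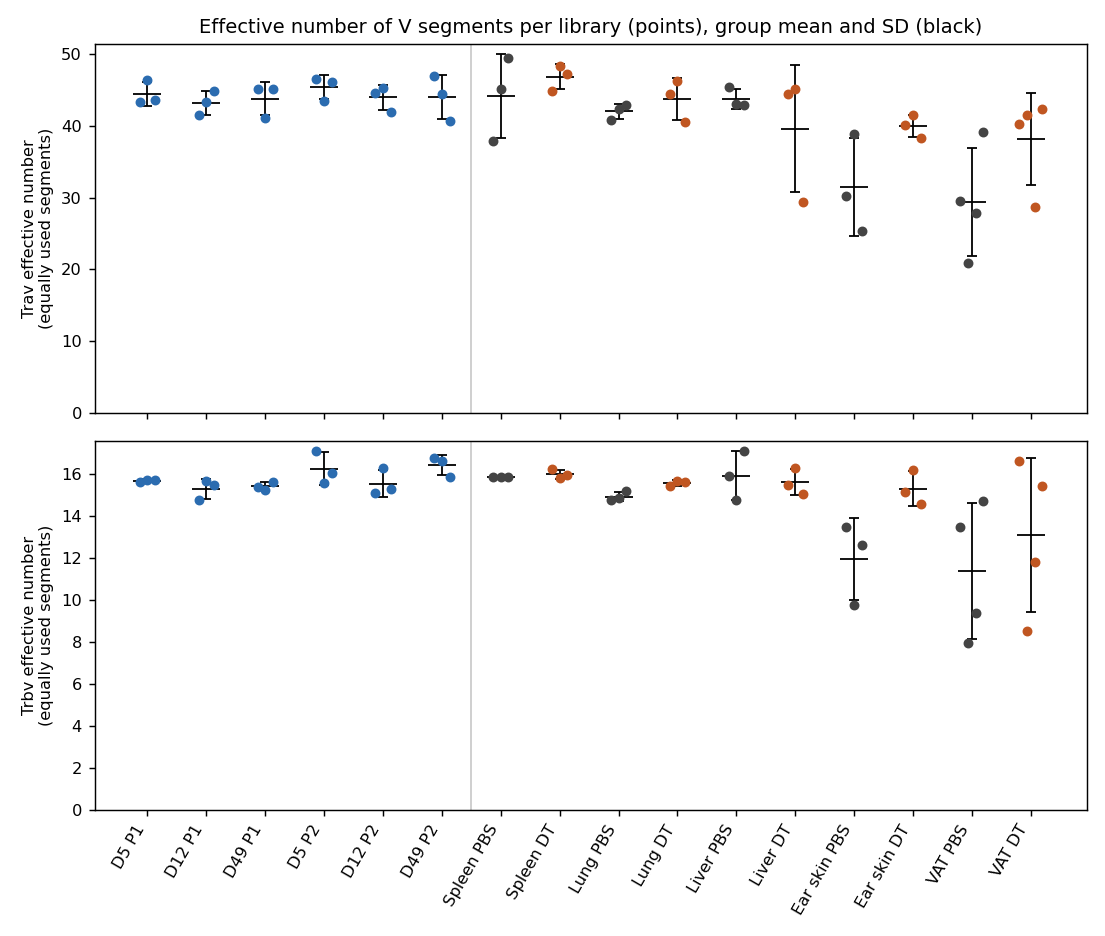
Effective number of Trav and Trbv segments per library. Points are libraries by group, in blue for thymus, grey for PBS-labelled and orange for DT-labelled libraries. Thymus and spleen libraries sit between 14.8 and 17.1 for Trbv, while VAT reaches down to 7.93 and ear skin to 9.75.

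DT-labelled libraries were compared with PBS-labelled ones within tissues. The mean effective number was 41.7 against 38.2 for Trav (difference 3.53; permutation test with 100000 resamples, p = 0.0764, adjusted p = 0.171) and 15.1 against 14 for Trbv (1.11; p = 0.0734, adjusted p = 0.171). In VAT alone Trav had 38.2 against 29.4 (8.83; exact permutation test, p = 0.0857, adjusted p = 0.171) and Trbv 13.1 against 11.4 (1.72; adjusted p = 0.579). The groups overlapped in each of these 4 comparisons. Without Liver DT 6 the Trav difference over all tissues was 4.56 and passed (adjusted p = 0.036). Among comparisons of arms between tissues, Trbv in ear skin had the lowest p: against spleen, PBS-labelled ear skin stood at -3.89 and DT-labelled at -0.691, and the difference of these differences was 3.20 (exact permutation test, p = 0.085, adjusted p = 0.833 over 12 such tests).

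No segment's level passed a test between arms. None of 81 segments tested passed in the edgeR quasi-likelihood test over all genes, either over all 5 tissues (13 at an unadjusted p under 0.05; 0.186% of all genes were higher, 0.0733% lower, 0.259% called in all) or in VAT (20 at an unadjusted p under 0.05; 0.062% of all genes higher, 0.0451% lower, 0.107% called in all). These percentages of all genes are at the adjusted threshold, so they are no yardstick for the 13 and 20 segments. The share of all genes at an unadjusted p under 0.05 was not counted. DESeq2 called 0 and 1 segment. Without a filter on low counts edgeR called 3 in each.

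Beta chain segments were lower in ear skin than in spleen almost throughout. Of 81 segments tested with edgeR over all genes, 25 fell and 0 rose in ear skin, against 19.3% of all genes that were lower and 41.9% called in either direction. Of the 22 Trbv segments 18 fell, with a median log2 fold change of -1.58 over the 22, and of 59 Trav segments 7 fell (median -0.52), beside a median of 0.14 over all genes. Trbv13-2 fell by 1.93 ± 0.24 on the log2 scale (SE; mean 19.5 against 74.3 TMM-normalised CPM, adjusted p = 7.65e-08), and its 6 ear skin libraries lay below all 6 spleen libraries. Trbv12-1 fell by 2.80 ± 0.46 (adjusted p = 8.28e-06) and Trbv23 by 3.54 ± 0.65 (adjusted p = 5.61e-05), also without overlap. Trbv20 fell by 1.96 ± 0.48 (adjusted p = 0.00161). Trav16 (-2.11 ± 0.85) and Trav7-3 (-1.98 ± 0.64) fell too, and the first of them lost the call in 11 of 17 alternatives.

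Other parts of the receptor fell with them. The 7 genes of the receptor complex, which carries the alpha and beta chains to the surface with the CD3 chains, were all lower in ear skin (median log2 fold change -0.87): Trbc2 fell by 1.44 ± 0.11 (317 against 856 TMM-normalised CPM, adjusted p = 2.1e-12) and Cd3d by 1.45 ± 0.11. Of 14 Trbj segments 13 were lower (median -1.49), and of the 32 Traj segments tested 1 (median -0.30). Trac, the alpha constant gene, ran from 366 to 493 CPM in ear skin and from 500 to 764 CPM in spleen. Sums of macrophage and fibroblast markers were 11.6 to 23.8 and 14.1 to 23.8 CPM in ear skin and 5.77 to 9.7 and 0.597 to 8.54 CPM in spleen, those of B cell and dendritic cell markers 238 to 630 and 27.1 to 72 CPM against 1438 to 1945 and 12.3 to 31.2 CPM, and the sum of 4 T cell markers was 1994 to 2317 against 4080 to 5226 CPM. No marker of these 5 lists was at 0 in all libraries of either tissue, and their part in the levels was not tested.

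Most of the ear skin calls were not kept as shares of the chain, which does not show that those shares were unchanged. When a segment was set against the total of its own chain in each library, 4 of the 25 remained: Trbv12-1 (-1.44 ± 0.47, adjusted p = 0.0154), Trbv23 (-2.16 ± 0.66), Trav7-1 (-1.56 ± 0.53) and Trav7-3 (-1.56 ± 0.62). Trbv12-1 held 2.48% to 5.47% of Trbv counts in spleen and 0.461% to 4.16% in ear skin, where Ear skin PBS 3 was the only library above 2%. Trbv23 held 0.402% to 1.02% in spleen and 0% to 0.562% in ear skin. Of Trbv13-2, by contrast, the share difference was -0.53 ± 0.27 (adjusted p = 0.108).

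In VAT 16 segments fell and 1 rose, against 9.1% of all genes lower and 21% called in either direction. Of the 22 Trbv segments 11 fell (median -0.89), and of 59 Trav segments 5 fell and 1 rose (median -0.29), beside a median of -0.01 over all genes. Trbv12-1 fell by 1.80 ± 0.38 (7.53 against 26.3 TMM-normalised CPM, adjusted p = 0.000462), a call that no alternative ended. Trbv4 fell by 1.45 ± 0.29 (adjusted p = 0.000296) and Trav14-1 by 1.69 ± 0.55 (adjusted p = 0.0241). Trav2 (-2.91 ± 0.90), Trav7n-4 (-1.93 ± 0.63) and Trav12-1 (-1.63 ± 0.60) also fell, the last with the call lost in 12 of 19 alternatives. Trav6-3 was the segment that rose, by 2.01 ± 0.66 (3.79 against 0.931 TMM-normalised CPM, adjusted p = 0.0253), with 0.232% to 0.825% in spleen and 0.249% to 4.42% in VAT. Its call was lost in 8 of 19 alternatives (adjusted p up to 0.158), among them those without VAT PBS 2, VAT DT 7, Spleen PBS 1 or any one of the DT-labelled spleen libraries. The count fell to 9 without Spleen PBS 1 and to 10 without Spleen DT 5.

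Against the chain total, 7 segments were called in VAT. Trbv12-1 (-1.10 ± 0.40), Trbv4, Trav14-1, Trav2 and Trav7n-4 stayed lower and Trav6-3 higher (2.12). Trav5-4, the leader of VAT PBS 1 and VAT PBS 4, was called higher on this scale (1.32, adjusted p = 0.045) but not as a level (1.27 ± 0.48, adjusted p = 0.058), where it passed with no filter and without VAT PBS 2, VAT PBS 3 or VAT DT 7, with 1.51% to 2.6% in spleen and 0.885% to 17.1% in VAT. Trbv1 and Trbv17, which led VAT DT 6 and VAT PBS 2, were not called on either scale. In the same comparison 5 of the 7 receptor complex genes, 11 of 14 Trbj segments and 0 of 32 Traj segments were lower. Trbc2 fell by 0.82 ± 0.10 and Cd3d by 0.73 ± 0.10.

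**Figure D4:**
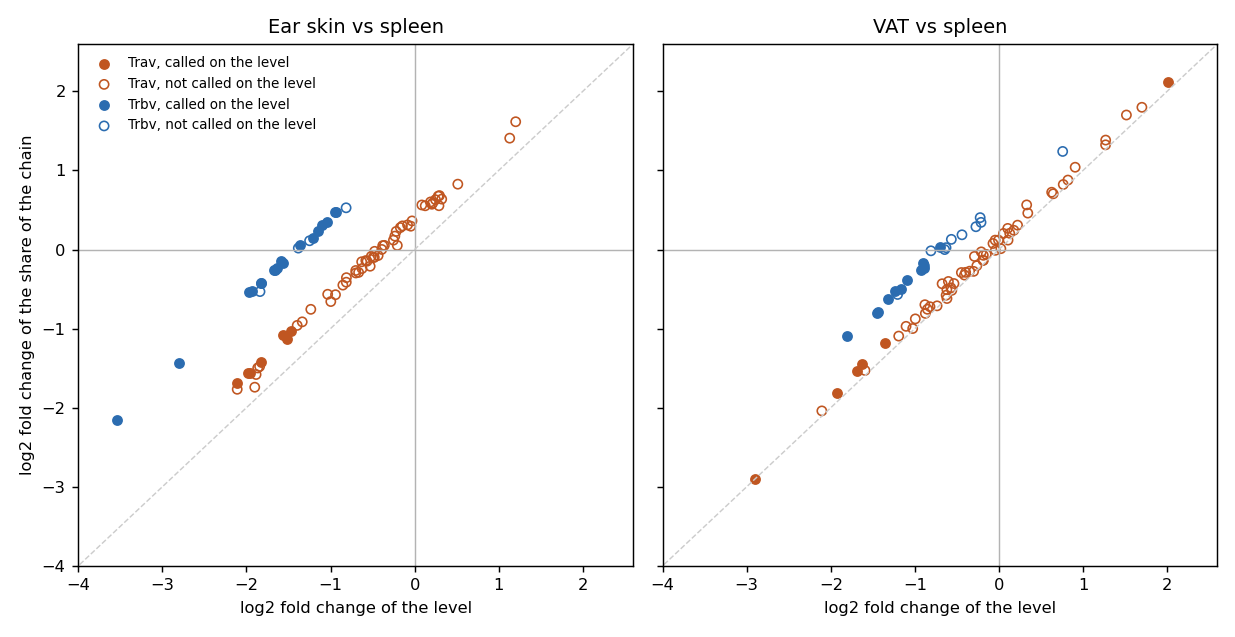
Log2 fold change of each V segment against spleen in ear skin and VAT, as a level (horizontal) and as a share of its chain (vertical). In ear skin the Trbv points sit left of 0 on the level axis (median -1.58) and nearer to 0 on the share axis; Trbv12-1 is low on both in each tissue.

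Lung and liver differed from spleen in few segments. In lung 3 of 81 fell (13.6% of all genes lower, 27.1% called in either direction): Trbv3 by 0.93 ± 0.30 (adjusted p = 0.0188), Trbv2 by 0.83 ± 0.32 and Trav9-4 by 1.2 ± 0.45. Leaving out Lung DT 4 left 0 of these calls, and leaving out Spleen PBS 3, Spleen DT 4, Spleen DT 6, Lung PBS 1 or Lung DT 5 left 1. In liver Trbv3 fell by 1.07 ± 0.30 (adjusted p = 0.00759) and Trav6n-5 rose by 2.51 ± 0.79 (adjusted p = 0.0164; not called without Liver PBS 1 or without Liver DT 4), against 14.1% of all genes higher, 12.8% lower and 26.8% called. Trbv3 held 7.12% to 12.6% of Trbv counts in spleen, 4.48% to 9.27% in lung and 4.45% to 7.97% in liver, so the ranges overlapped. Dendritic cell markers summed to 37.2 to 84.7 CPM in lung and 37.5 to 61.2 CPM in liver, against 12.3 to 31.2 CPM in spleen, and Lung PBS 1 had macrophage markers at 60.1 CPM (5.77 to 9.7 in spleen); their part was not tested. The share difference of Trbv3 did not pass in either tissue (adjusted p = 0.0685 and 0.11). Trav6n-5 differs from Trav6-5 at 1 position of the V exon, so the 2 can share reads.

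In the thymus 4 beta segments changed between D5 and D49 and kept the call in all 18 alternatives. Trbv12-1 rose: its share was 1.73%, 1.04% and 2.06% in D5 P1, 1.75%, 1.5% and 1.05% in D5 P2, 4.05%, 4.69% and 5.19% in D49 P1 and 4.80%, 2.97% and 2.40% in D49 P2. Every D49 library lay above every D5 library, and D12 libraries lay between 1.75% and 3.12%. The log2 fold change was 1.36 ± 0.22 (edgeR, adjusted p = 7.77e-05). Its relative Trbv12-2 was not called, with 6.21% to 8.74% at D5 and 5.97% to 9.96% at D49.

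Trbv13-3 rose by 0.70 ± 0.14 (adjusted p = 0.000557). It held 2.46% to 3.71% at D5, 3.63% to 4.91% at D12 and 3.93% to 7.23% at D49, so shares at D5 and D49 did not overlap. Trbv19 fell by 0.57 ± 0.10 (adjusted p = 0.000269), from 9.40% to 11.3% at D5 to 6.15% to 8.01% at D49, with D12 libraries at 8.34% to 10.2%. Trbv20 fell by 1.11 ± 0.17 (adjusted p = 6.11e-05). Its shares were 3.87%, 3.66% and 2.92% in D5 P1 and 1.58%, 1.06% and 0.894% in D49 P1, and 6.47%, 4.29% and 4.61% in D5 P2 and 2.82%, 3.26% and 3.57% in D49 P2. Within each population the ages did not overlap.

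In all, 8 of 79 segments were called between D49 and D5, 4 higher and 4 lower, against 25.7% of all genes (12.1% higher and 13.6% lower). The others were Trav5-1 (1.48 ± 0.49, adjusted p = 0.0295), Trav7-1 (1.05 ± 0.34), Trbv14 (-0.87 ± 0.31) and Trav14d-3-dv8 (-0.77 ± 0.24). Each of these lost the call in 5 to 15 of 18 alternatives. Leaving out D5 P1 replicate 3 gave 4 calls, and D5 P2 replicate 2 gave 5. As shares of the chain 9 were called, with Trbv12-1 at 1.38 and Trbv20 at -1.12. Between D12 and D5 only Trbv20 (-0.53 ± 0.17, adjusted p = 0.0415) and Trbv31 (-0.49 ± 0.16, adjusted p = 0.0441) passed, both lower, against 4.6% of all genes higher, 7.48% lower and 12.1% called. Leaving out a library left 0 or 1 of 2 calls in every case.

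Macrophage markers were raised in part of the D49 libraries. Their sum was 19.3, 82.7 and 104 CPM in the 3 D49 P2 libraries, against 1.87 to 23.5 CPM in the other 15 thymus libraries. Without the 2 highest, an alternative chosen after seeing the data, 6 segments were called between D49 and D5 and Trbv12-1 stood at 1.62, Trbv13-3 at 0.66, Trbv19 at -0.46 and Trbv20 at -1.2, all past the threshold. Among V(D)J recombination genes Dntt, which adds bases at the joints, rose by 1.69 ± 0.35 (15.4 against 4.16 TMM-normalised CPM, adjusted p = 0.0012), and 2 of the 10 tested genes rose and 2 fell. Of the receptor complex only Cd3e passed (0.17 ± 0.06), and 0 of 14 Trbj and 0 of 31 Traj segments did.

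**Figure D5:**
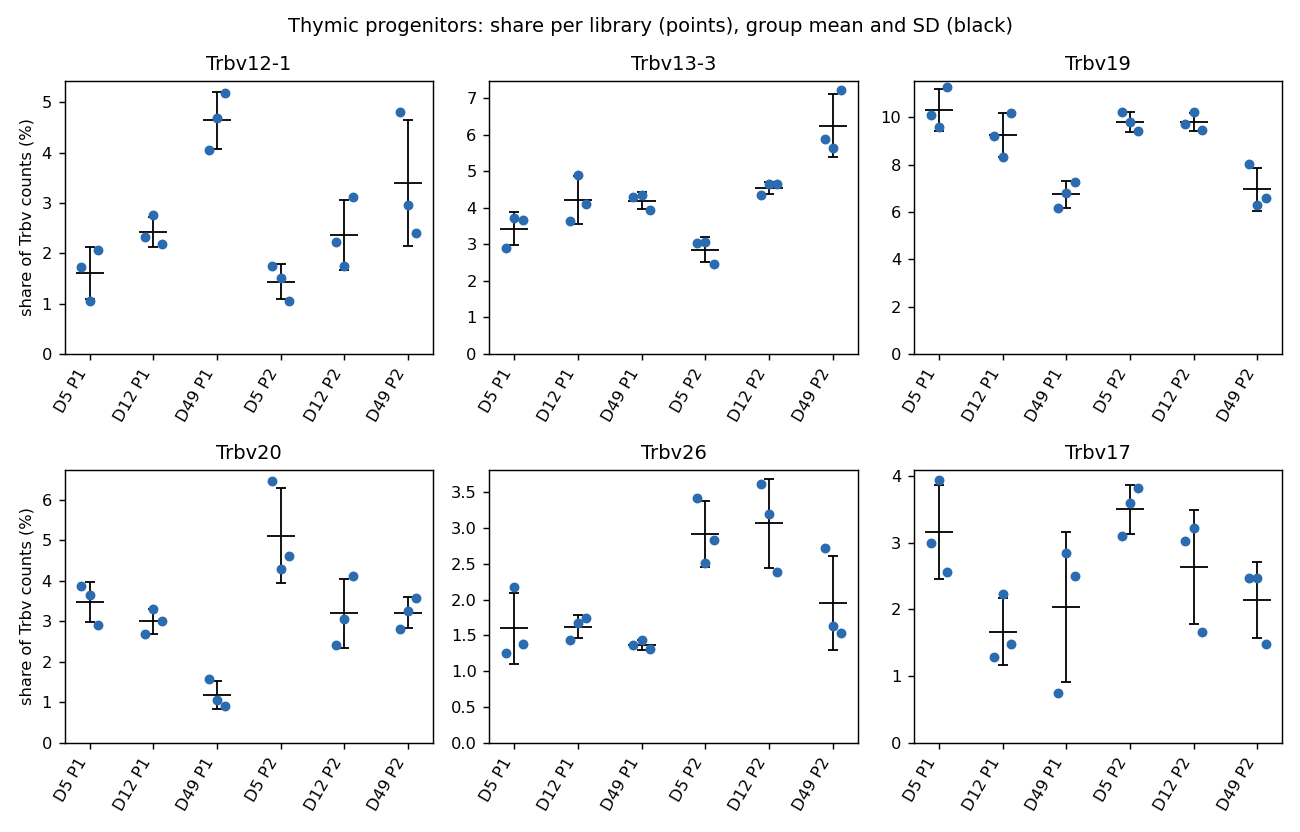
Share of Trbv counts (percent) of 6 beta segments in the 18 thymus libraries by age (day 5, 12 and 49), with P1 and P2 libraries as separate marks. Trbv12-1 and Trbv13-3 are higher at D49 than at D5, Trbv19 and Trbv20 lower, and Trbv20 and Trbv26 are higher in P2 than in P1.

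P2 cells, which carry Foxp3, had higher counts of beta segments than P1 cells, which carry CD25. Of 79 segments 8 rose and 0 fell, against 18.2% of all genes higher, 20.3% lower and 38.5% called. Of these 7 were Trbv, whose 22 segments had a median log2 fold change of 0.29, and 1 was Trav8n-2. Trbv26 rose by 1.05 ± 0.16 (22.9 against 10.9 TMM-normalised CPM, adjusted p = 1.6e-05) and Trbv20 by 0.98 ± 0.14 (33.4 against 18.2, adjusted p = 9.94e-06), and both held in all 24 alternatives. Trbv17 (0.58 ± 0.21), Trbv13-3 (0.42 ± 0.11), Trbv19 (0.29 ± 0.08), Trbv12-2 (0.29 ± 0.11) and Trbv16 (0.27 ± 0.10) rose less, and Trav8n-2 by 0.85 ± 0.31. Trbv17 lost the call in 12 and Trav8n-2 in 13 of 24 alternatives. Without D12 P1 replicate 3 the count was 4, and without D5 P1 replicate 1, D5 P2 replicate 2 or D12 P1 replicate 2 it was 5.

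As shares of the chain only Trbv26 (0.77 ± 0.16, adjusted p = 0.000602) and Trbv20 (0.70 ± 0.14, adjusted p = 0.000493) stayed called. Trbv26 held 1.25%, 2.17% and 1.37% of Trbv counts in D5 P1 against 3.42%, 2.51% and 2.83% in D5 P2, and 1.44%, 1.68% and 1.74% in D12 P1 against 3.61%, 3.20% and 2.39% in D12 P2. At D49 it held 1.36%, 1.44% and 1.3% in P1 and 2.71%, 1.63% and 1.53% in P2. P2 lay above P1 at each of the 3 ages without overlap. In the same comparison 5 of 7 receptor complex genes, 5 of 14 Trbj and 6 of 31 Traj segments rose, while Dntt fell by 1.56 ± 0.29. Sums of B cell markers were 216 to 381 CPM in P2 and 103 to 163 CPM in P1, and those of double-positive thymocyte markers 26.4 to 55.3 and 56.3 to 108 CPM. Their part was not tested.

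The effective number of segments did not differ detectably with age or population in the thymus. For Trav the differences were -0.999 for D49 against D5, -1.32 for D12 against D5 and 0.639 for P2 against P1 (exact permutation tests, adjusted p = 0.559, 0.286 and 0.579). For Trbv they were -0.047, -0.543 and 0.605 (adjusted p = 0.88, 0.171 and 0.0759), and the last passed without D5 P2 replicate 2 (0.715, adjusted p = 0.045). In Trbv the P2 libraries had 15.1 to 17.1 and the P1 libraries 14.8 to 15.7.

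Positions along the alpha locus were compared because rearrangement begins with V segments near the J cluster and moves outwards. The mean distance of the used Trav segments from Trac, weighted by share, was 769 kb at D49 and 741 kb at D5, a difference of 28.1 kb (exact permutation test, adjusted p = 0.225 over 3 tests). It was -12.4 kb for D12 against D5 and 9.26 kb for P2 against P1 (adjusted p = 0.278 and 0.446). The 3 D49 P2 libraries had 761, 800 and 826 kb and all other thymus libraries 708 to 765 kb. With segments of the duplicated block left out, the D49 difference was 44.5 kb and passed (adjusted p = 0.015), and without D5 P1 replicate 2 it was 31.9 kb (adjusted p = 0.045).

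The segments known from invariant T cells were looked up as well. Trav11 and Trav11d, which form the alpha chain of invariant NKT cells, are identical over the 290 bases compared and had 3 and 1 counts in all 50 libraries together. Since identical copies can lose reads in counting, these counts do not measure their use. Trav1, used by mucosal-associated invariant T cells, held 0.845% of Trav counts as a mean of group means, from 0.217% in D5 P2 to 2.01% in DT-labelled spleen. In spleen it was at 0.927%, 0.619% and 0.124% in the PBS-labelled and 1.54%, 1.82% and 2.66% in the DT-labelled libraries. The arms were not tested within spleen alone, and how many other segments separate them there was not counted. Trav1 held 431 counts over all 50 libraries, and its highest share was 4.66% (3.56% to 5.97%) in VAT DT 5.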

How the data were processed

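The authors deposited a single raw read count table, by gene symbol, covering 50 libraries. The submitters' processing notes name STAR 2.7.3a, featureCounts and mm10. The sources used here do not give its annotation, strand or multi-mapping settings. Segment positions, types and sequences come from GENCODE M21, and 2 symbols were matched through RefSeq synonyms.

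Shares are counts of a segment over all Trav or all Trbv counts of a library. Effective numbers were compared by two-sided exact permutation within strata (P1 and P2, ages, arms or tissues), or 100000 resamples for DT against PBS, with Benjamini-Hochberg adjustment over 18 tests. Levels were tested with the edgeR 4.0.16 quasi-likelihood test in R 4.3.3 on all genes (TMM, filterByExpr, minimum count 10, minimum total 15, Benjamini-Hochberg over all genes, threshold 0.05), in one fit of 18 thymus and one of 32 peripheral libraries. Standard errors are each log2 difference divided by the root of its F statistic. Marker sums are plain CPM. The share test used the chain total as offset for that chain's segments. The scripts were tested on simulated counts. Alternatives were RLE size factors, no filter, DESeq2 1.42.0, the inverse Simpson index, thinning, subgroup sums, pseudogenes or the duplicated block left out, each library left out and a replicate block.

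Named segments are the 10 with the highest mean share per chain, those over 10% (Trav) or 25% (Trbv) in a library, up to 5 called per direction and comparison with a mean share of at least 0.5%, and Trav11, Trav11d, Trav1 and Trbv31. Other segments named, such as the remaining calls of a comparison, leaders of single libraries and Trbv12-2 beside Trbv12-1, were chosen after their values were seen. Members, lists and tests were chosen with earlier results of these data known. No pair of replicates agreed within sampling noise (chi-square over degrees of freedom at least 3.61).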

Additional observations from a re-analysis of the deposited data

Results flagged for a closer look

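Each group of 4 libraries was searched for a library that lay far from the other 3 by Dixon's test at 95%. Only PBS- and DT-labelled VAT have 4 libraries, so the search covers VAT alone. It held in 14 of 86 sets of values. Chance gives about 1 in 20 for a single independent set, which is no yardstick for the 14, because several segments were named for a high share in 1 library and shares within a library depend on each other. In PBS-labelled VAT, Trbv17 stood at 40.8% and Trav8-1 at 21.5% in VAT PBS 2 (nearest other library 2.62% and 2.57%), and Trbv16 was low there at 1.08% (4.10%). VAT PBS 1 stood out by Trav12-3 at 9.86% (3.02%). VAT PBS 3 stood out by Trav9-2 at 8.91% (1.33%) and Trav6-7-dv9 at 6.78% (3.23%), and VAT PBS 4 by Trav3-3 at 6.46% (2.01%) and Trav1 at 2.29% (0.331%). In DT-labelled VAT, Trbv1 was at 44.7% in VAT DT 6 (13.8%) and Trav1 at 4.66% in VAT DT 5 (0.463%). VAT DT 7 had a Trav effective number of 28.7 (40.4), Trav6-3 at 3.70% (1.53%) and Trav2 at 0% of 648 Trav counts (0.443%). VAT DT 8 had Trav12-1 at 2.00% (0.154%).

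The effects of tissue on evenness were compared between arms, and those of age between P1 and P2, in 12 tests. None passed the adjusted threshold, and the smallest unadjusted p was 0.085.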

How the results depend on the processing

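Over 565 alternative values of 30 results, 479 were rated the same. For effective numbers and Trac distances this means that direction and call were kept. For counts of called segments it means only that both counts were 0 or within a ratio of 1.5. Neither the direction nor the identity of the called segments entered that rating. Inverse Simpson index: ear skin Trav -9.28 and Trbv -2.76 passed. Pseudogenes out: ear skin Trav -8.72 and Trbv -2.36 passed. Thinned libraries: VAT Trav -10.8 and lung Trbv -0.618 missed. Subgroup sums: VAT Trav -1.17 and lung Trbv -0.863 missed, and the uncalled Trav differences D49 0.332, D12 0.201 and P2 against P1 -0.042 changed sign. Without 2 D49 P2 libraries, chosen after seeing the data, the uncalled D49 differences were 0.454 (Trav) and 0.119 (Trbv). With the duplicated block left out, the Trac distance was 44.5 kb for D49, which passed, and 1.37 kb for D12. The cause was not tested.

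Leaving out 1 library gave effective number differences of -13.3 to -10.1 (VAT Trav), -11.6 to -8.23 (ear skin Trav), -4.18 to -1.30 (lung Trav), 2.90 to 4.56 (DT Trav), -4.28 to -2.93 (VAT Trbv), -2.68 to -1.75 (ear skin Trbv), -0.732 to -0.614 (lung Trbv), -0.444 to 0.128 (liver Trbv, positive without Liver PBS 2), -0.213 to 0.168 (D49 Trbv, 0.168 without D5 P2 1 and 0.088 without D49 P2 3), 0.461 to 0.715 (P2 Trbv) and, without any call, -5.36 to -1.23 (liver Trav) and 0.534 to 3.24 (DT in VAT, Trbv). The Trac distance for D49 was 20.6 to 36.7 kb. Called segments numbered 4 to 11 (D49), 0 to 1 (D12), 4 to 11 (P2), 0 to 3 (lung), 9 to 20 (VAT) and 0 to 1 (DT in VAT, 1 without VAT PBS 4).

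RLE size factors called 0 (D12) and 1 (lung) segments; no filter called 1 (D12), 4 (P2), 4 (liver), 3 (DT) and 3 (DT in VAT); DESeq2 called 1 (DT in VAT). The chain total as offset called 4 (D12), 2 (P2), 0 (lung), 1 (liver), 4 (ear skin) and 7 (VAT).

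The replicate numbers were not used to pair libraries in the main tests. In no comparison was the correlation of deviations over 0.1 in every same-numbered pair. With 3 same-numbered pairs or fewer per comparison, this rule cannot show that pairing is absent. Between Liver DT and Spleen DT, same-numbered pairs ran from 0.0416 to 0.117 and the others from -0.119 to 0.0331. In all other comparisons these ranges overlapped. With a replicate block the called segments numbered 9 (D49), 2 (D12), 6 (P2), 2 (lung), 3 (liver), 24 (ear skin) and 12 (VAT), and 5 of 30 named segments lost the call. Of all named-segment values under alternatives, 408 kept and 157 lost it.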

Other observations

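Trav14-1 differed between the thymus libraries and those of older mice, which no comparison of the design joins, since strain, age and sorted population differ with the organ. It held 4.77% to 10.7% of Trav counts in the 18 thymus libraries. In spleen it held 0.825% to 4.23%, in lung 0.564% to 3.86%, in ear skin 0.74% to 2.5% and in VAT 0.0828% to 2.08%. Liver DT 6 was the exception at 12.5%, where the other 5 liver libraries had 0.491% to 2.17%.

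Trav6n-5 was at 0.637% to 1.52% in all 6 lung libraries and at 0% to 0.372% in all 6 spleen libraries, although the level difference in lung did not pass the test over all genes. In liver 5 of 6 libraries were above the spleen range, and Liver DT 6 was at 0.123%. Trav6n-5 held only 204 counts over the 50 libraries and can share reads with Trav6-5, from which it differs by 1 edit. The segment was picked after its values were seen. How many other segments separate lung from spleen was not counted.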
